A study of Mus musculus with 4 samples.

Results

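The subcortical maternal complex is a protein assembly that mouse oocytes store beneath the cell cortex and pass on to the cleavage embryo. The genes described here are those of its components and partners: *Nlrp5*, *Nlrp2*, *Ooep*, *Tle6*, *Khdc3*, *Padi6* and *Zbed3*. They were chosen by their symbols, with no threshold on a measured value but with earlier results of these data known. All 7 were found by symbol among the 26022 genes of the count table, and all 7 passed the filter on low counts that left 14259 genes for testing. Late 2-cell (2C) embryos of the outbred ICR mouse strain were compared between 2 libraries of embryos cultured with 200 μM Mdivi-1, a small molecule used to inhibit the mitochondrial fission GTPase DRP1, and 2 Control libraries of embryos cultured in the same KSOM medium without it. In both groups the zygotes came from hormone-stimulated ICR females of 7 to 8 weeks mated with ICR males, and a collection of 8 to 10 embryos followed 16 h of culture. Neither group carried a genetic change. No label or method states whether replicate libraries derive from separate collections of embryos, so that p-values measure only the spread between these libraries, which may be technical.

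As background, the complex is known best from mouse. Its mRNAs are transcribed in the growing oocyte, and the bulk of the stored maternal mRNA is removed during zygotic genome activation, while the proteins persist for longer at the outer cortex of the blastomeres. Mouse females that lack *Nlrp5* or *Ooep* produce embryos that stop at early cleavage. The complex is also linked to the cytoplasmic lattices, fibres that fill the oocyte cytoplasm, and to the placement of organelles, mitochondria among them.

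The libraries had 17712075 to 20077326 counts and between 14793 and 16311 genes with a count. Levels are given as TMM-normalized CPM, counts scaled to a common library size. The test of each difference was the quasi-likelihood test of edgeR, with Benjamini-Hochberg adjustment over all 14259 genes, under which 0 genes passed an adjusted p of 0.05. At an unadjusted p under 0.05 this test gave 1179 genes higher (8.27%) and 1089 lower (7.64%). At an adjusted p under 0.05, DESeq2 called 467 higher (3.41%) and 400 lower (2.92%) of the 13706 genes to which it gave an adjusted p. Limma-voom called 125 higher (0.877%) and 77 lower (0.54%) of all 14259 genes. With 2 libraries against 2, an exact permutation test of a single value cannot give a two-sided p below 0.333. The embryos carried transcripts of all 15 listed 2C markers and all 10 oocyte markers. Among 17 cumulus and granulosa cell markers, 5 were at 0 in every library, namely *Has2*, *Ptx3*, *Inha*, *Amh* and *Vcan*. The summed level of these 17 markers was 78.4 and 74.2 CPM in the Mdivi-1 libraries and 167 and 166 CPM in the Control libraries, of which *Gja1*, a gap junction gene, made up 53.9 and 50.1 CPM with Mdivi-1 and 159 and 149 CPM in Control. *Gja1* was named after its values were seen, and the list as a whole did not share its direction, with 3 of its 5 tested markers at a positive log2 fold change (median 0.55). Summed levels of sperm markers were at most 6.07 CPM in any library, those of oviduct markers at most 7.89 CPM.

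*Zbed3* was the most abundant member and about 3-fold higher in Mdivi-1-treated embryos, a difference that passed an adjusted p of 0.05 by DESeq2 and limma-voom but not by edgeR's quasi-likelihood test, whereas *Ooep*, *Nlrp5*, *Tle6*, *Padi6* and *Khdc3* had fold changes between 0.995 and 1.35, all within overlapping libraries. *Nlrp2*, at a much lower level, had both treated libraries above both controls and was called by none of these tests. Such a separation was seen in 2 of the 7 members, *Zbed3* and *Nlrp2*, and in 26.1% of all genes tested. The median log2 fold change of the 7 members was 0.42, and 0.37 without *Zbed3*, beside 0.03 over all genes tested. The log2 fold change was positive in 5 members and negative in 2, where 51.3% of all genes had a positive one.

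**Figure D1:**
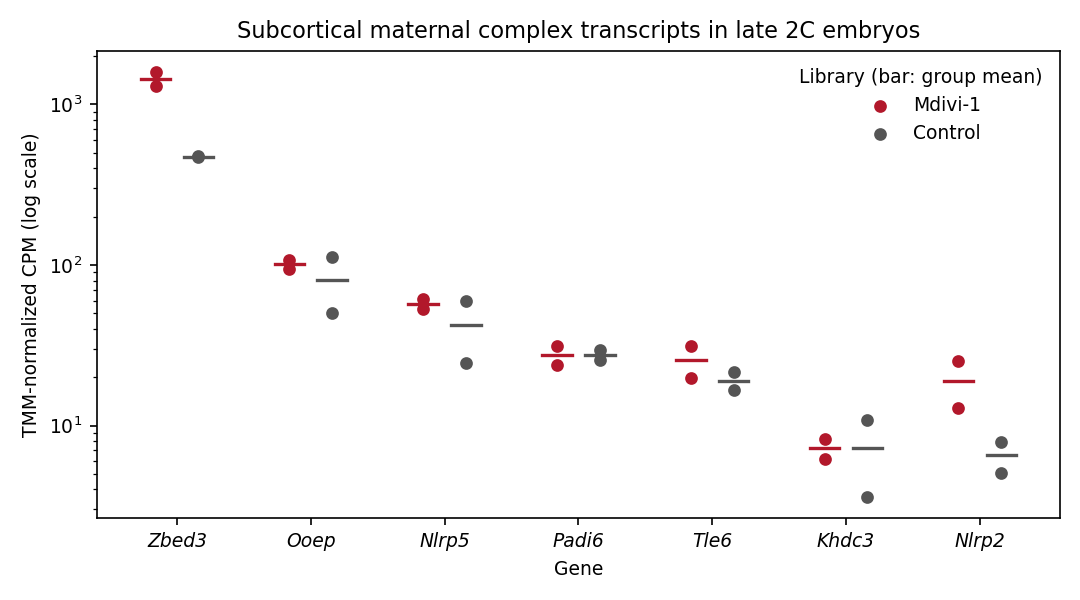
Levels of the 7 members (x axis) in each library, in TMM-normalized CPM on a log scale (y axis), with Mdivi-1 libraries in red left of Control libraries in grey and bars at the group means. For *Zbed3* (1303 and 1594 CPM with Mdivi-1) and *Nlrp2* both Mdivi-1 libraries lie above both Control libraries, and for the other 5 genes the groups overlap. Of all genes tested, 26.1% had both Mdivi-1 libraries above both Control libraries.

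The mRNA ends of the members are shown because Smart-Seq2 starts its copying at the poly(A) tail, and because the length of that tail is how stored maternal mRNAs are kept silent or called into use. Sequences were read from the GENCODE M21 transcripts on GRCm38, taking for each gene its principal protein-coding transcript. Each run below lies in the 3′ UTR, reads 5′ to 3′ along the mRNA strand, and has the polyadenylation signal AATAAA in capitals.

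Nlrp5 (chr7:23441887-23441916, plus strand): tagcaagaatgaAATAAAcacagcatttag
Nlrp2 (chr7:5298552-5298581, minus strand): ggtatattggggAATAAAagggaaaacatg
Tle6 (chr10:81590907-81590936, minus strand): cgagttgcgtgtAATAAAacaattgaaatg
Khdc3 (chr9:73104409-73104438, plus strand): ttaaagtattctAATAAAaaaaaaattgca
Padi6 (chr4:140727361-140727390, minus strand): tgccatagagccAATAAAgcatggtattct
Zbed3 (chr13:95337809-95337838, plus strand): ttttttttttttAATAAActtttatttatc

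The signal AATAAA, read on the mRNA strand only, was present in the last 40 bases of 6 of the 7 members, beside 62.8% of 12395 tested genes whose 3′ UTR has at least 100 bases. *Ooep* had neither AATAAA nor the variant ATTAAA in that window. A cytoplasmic polyadenylation element, in the forms TTTTAT or TTTTAAT, is the site through which CPEB proteins lengthen or hold back the tail of stored mRNAs. In the last 100 bases, TTTTAT was found in 1 of the 7 members and in 15% of the tested genes, and TTTTAAT in 1 member and 5.64% of the genes. That member was *Zbed3* in both cases, and its TTTTAAT overlaps the polyadenylation signal:

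Zbed3 (chr13:95337805-95337834, plus strand, TTTTAAT in capitals): ctccttttttttTTTTAATaaacttttatt

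The TTTTAT of *Zbed3* starts 14 bases and the TTTTAAT 25 bases before the annotated end of the transcript, so that the TTTTAT lies downstream of the signal. Over the whole 3′ UTR, of 1088 bases, *Zbed3* had 4 copies of TTTTAT, and none of the other 6 members had any. No share over the tested genes was worked out for whole 3′ UTRs, and a shorter 3′ UTR has fewer places for a match. *Nlrp5*, *Nlrp2*, *Tle6*, *Padi6* and *Khdc3* have short 3′ UTRs of 112, 192, 133, 224 and 249 bases, beside a median of 940 bases over the tested genes. *Ooep* and *Zbed3* are the exceptions, and *Ooep* has an annotated 3′ UTR of 1449 bases after a coding sequence of 492 bases. These matches describe the annotated sequence and do not show that a site is used.

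*Zbed3* encodes a protein with a BED-type zinc finger that binds Axin in the Wnt pathway and that was placed in the complex in mouse oocytes, where it is linked to the distribution of organelles. The gene (ENSMUSG00000041995) lies on the plus strand of chromosome 13 of GRCm38 from 95323612 to 95337841, and no other gene shares its exon bases. It had 1303 and 1594 CPM in the Mdivi-1 libraries and 474 and 473 CPM in the Control libraries, from raw counts of 24267 and 30580 with Mdivi-1 and 10422 and 7213 in Control. Both treated libraries were thus far above both controls, and the controls differed little. The fold change was 3.06 with a 95% interval of 1.84 to 5.09 (log2 fold change 1.61 ± 0.32 SE, edgeR adjusted p = 0.146). The gene was rank 97 of the 14259 genes by p. DESeq2 gave adjusted p = 1.26e-05 and limma-voom adjusted p = 0.0227, so that *Zbed3* passed the threshold under these tests and missed it under the quasi-likelihood test. Leaving out each library in turn gave log2 fold changes between 1.44 and 1.75. It was the 1 member that DESeq2 called, where DESeq2 called 3.41% of the genes with its adjusted p higher.

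Beside *Zbed3*, the summed level of the oocyte markers was 3867 and 4971 CPM in the Mdivi-1 libraries and 1806 and 3432 CPM in the Control libraries, with 8 of the 10 at a positive log2 fold change (median 0.64). The 2C markers had summed levels of 5638 and 7357 CPM in the Mdivi-1 libraries and 3207 and 5404 CPM in the Control libraries and 11 of 15 at a positive log2 fold change (median 0.87). DESeq2 called 6 of these 15 markers higher and 3 lower, beside 3.41% and 2.92% of the genes with its adjusted p. Over all genes, 51.3% had a positive log2 fold change. The part of either list in the *Zbed3* result was not tested. With embryos pooled, a difference in some embryos and a smaller one in all of them cannot be told apart, and CPM do not show whether RNA was retained or newly made.

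*Nlrp2* encodes an NLR family protein with a pyrin domain, and mouse females that lack it have poorly developing embryos. It (ENSMUSG00000035177) lies on the minus strand of chromosome 7 from 5298547 to 5351035, and 2.99% of its exon bases also belong to the pseudogene *Gm18757*. The level was 25.3 and 12.8 CPM in the Mdivi-1 libraries and 5.10 and 7.94 CPM in the Control libraries. The groups did not overlap, but the treated libraries differed more between themselves than the lower of them did from the nearer control. The fold change was 2.92 with a 95% interval of 1.15 to 7.45 (log2 fold change 1.55 ± 0.58 SE, edgeR adjusted p = 0.260, DESeq2 adjusted p = 0.180). This difference was 0.97 on the log2 scale without Mdivi-1 replicate 1 and 1.94 without Mdivi-1 replicate 2. *Nlrp2* and *Zbed3* were the 2 members higher at an unadjusted p under 0.05, beside 8.27% of all genes, and the 2 with both treated libraries above both controls, beside 26.1% of all genes. No member was lower by either measure, beside 7.64% and 23.9% of all genes. Of the lower calls by DESeq2 (2.92% of the genes with its adjusted p) and limma-voom (0.54% of all genes), none was a member. *Zbed3* was the 1 member among the higher calls of limma-voom (0.877% of all genes).

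*Nlrp5*, which encodes MATER, a leucine-rich scaffold of the core complex, lies on the plus strand of chromosome 7 from 23385889 to 23441922 (ENSMUSG00000015721). It had 53.6 and 61.0 CPM in the Mdivi-1 libraries and 60.1 and 24.5 CPM in the Control libraries. Control replicate 1 was level with the treated libraries and Control replicate 2 was below them. This gave a fold change of 1.35 with a 95% interval of 0.655 to 2.79 (edgeR adjusted p = 0.717), and without Control replicate 2 the log2 fold change was -0.09.

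*Ooep*, which encodes a small protein with a KH-like domain (also called FLOPED) that binds MATER directly, lies on the minus strand of chromosome 9 from 78376109 to 78378725 (ENSMUSG00000032346). It had 94.0 and 108 CPM in the Mdivi-1 libraries and 50.5 and 111 CPM in the Control libraries. Here Control replicate 1 was the low library, the reverse of *Nlrp5*. The fold change was 1.25 with a 95% interval of 0.648 to 2.40 (edgeR adjusted p = 0.787), and without Control replicate 1 the log2 fold change was -0.15.

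*Tle6* belongs to the Groucho family of co-repressors by sequence and acts in the complex at the cortex of mouse oocytes. The gene (ENSMUSG00000034758) lies on the minus strand of chromosome 10 from 81590904 to 81601073. It had 31.2 and 19.9 CPM in the Mdivi-1 libraries and 16.6 and 21.6 CPM in the Control libraries. Mdivi-1 replicate 2 lay between the controls. This gave a fold change of 1.34 with a 95% interval of 0.666 to 2.70 (edgeR adjusted p = 0.716).

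*Padi6*, an arginine deiminase family protein required for the cytoplasmic lattices of mouse oocytes, lies on the minus strand of chromosome 4 from 140727355 to 140742643 (ENSMUSG00000040935). It was the most even member, with 31.2 and 23.8 CPM in the Mdivi-1 libraries and 29.8 and 25.5 CPM in the Control libraries. The controls lay between the treated libraries. The fold change was 0.995 with a 95% interval of 0.539 to 1.84 (edgeR adjusted p = 0.996), so that a change of 2-fold in either direction lay outside the interval.

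*Khdc3*, which encodes FILIA, a KH domain protein linked to spindle assembly and correct chromosome number in mouse embryos, lies on the plus strand of chromosome 9 from 73101836 to 73104438 (ENSMUSG00000092622). It had 8.27 and 6.15 CPM in the Mdivi-1 libraries and 10.8 and 3.61 CPM in the Control libraries. The treated libraries lay between the controls. This gave a fold change of 0.9996 with a 95% interval of 0.295 to 3.39 (edgeR adjusted p = 0.9996), the widest among the members on the log2 scale. Its value is uncertain, since 38.5% of its exon bases (790 of 2050) also belong to *Gm20509*, a gene model on the same strand, and reads that fall in the exons of more than 1 gene are left out by the counting method.

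**Figure D2:**
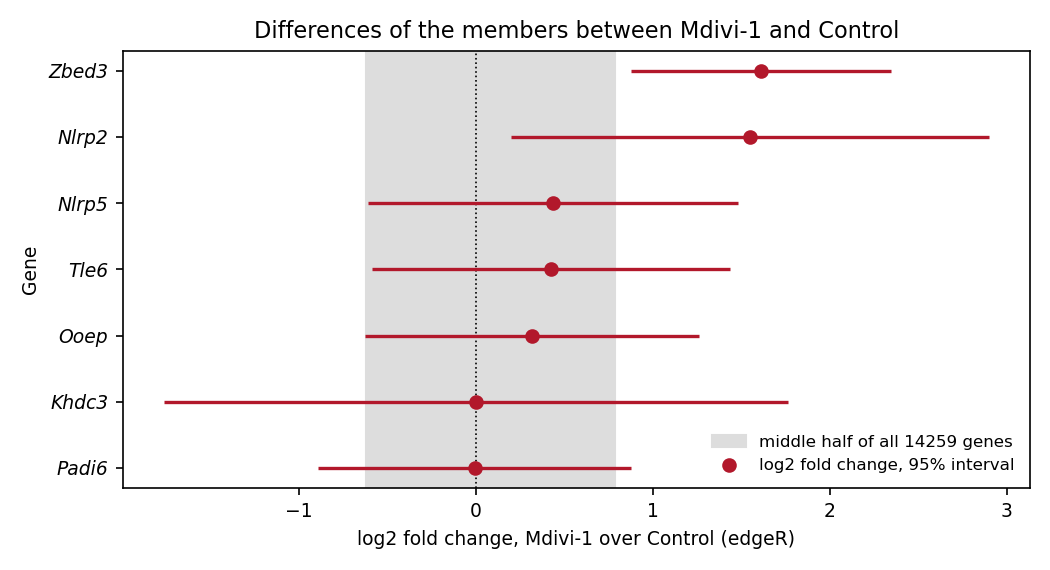
Log2 fold change, Mdivi-1 over Control (x axis), of the 7 members (y axis) by edgeR with its 95% interval, over a grey band between the quartiles of all 14259 genes tested (-0.62 and 0.78). The intervals of *Zbed3* (0.88 to 2.35) and *Nlrp2* (0.20 to 2.90) lie above 0 and those of the other 5 genes include 0.

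Compared per kilobase of exon, *Zbed3* was by far the most abundant member, at 584 and 714 CPM per kb in the Mdivi-1 libraries and 213 and 212 in the Control libraries. Its mean lay above 99.6% of the tested genes with Mdivi-1 and above 98.2% in Control. *Ooep* came next, with 44.0 and 50.3 CPM per kb in the Mdivi-1 libraries and 23.6 and 52.1 in the Control libraries, and it did not overlap *Zbed3* or any lower member in either group. The remaining 5 members lay well below it. In the Mdivi-1 libraries the order by mean was *Nlrp5* (11.8 CPM per kb), *Padi6* (10.9), *Tle6* (8.28), *Nlrp2* (5.42) and *Khdc3* (3.52), and the libraries of every neighbouring pair in this order overlapped. In the Control libraries the order was *Padi6* (10.9 CPM per kb), *Nlrp5* (8.72), *Tle6* (6.18), *Khdc3* (3.51) and *Nlrp2* (1.86). There the neighbours overlapped except for *Tle6* and *Khdc3*, whose nearest libraries were at 5.36 and 5.26. By these values *Nlrp2* was the lowest member in Control and the second lowest with Mdivi-1. The place of *Khdc3* in both orders is uncertain, its gap to *Tle6* and its order with *Nlrp2* included. Its full exon length was used, although reads in the 38.5% of its exon bases shared with *Gm20509* are not counted, which lowers its CPM per kb.

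Summed over the members, CPM were 1546 and 1825 in the Mdivi-1 libraries and 647 and 668 in the Control libraries. *Zbed3* made up 84.2% and 87.3% of this sum with Mdivi-1 and 73.3% and 70.9% in Control. The other 6 members together gave 244 and 231 CPM in the Mdivi-1 libraries and 173 and 195 CPM in the Control libraries. The sum over all members is therefore mainly a measure of *Zbed3*. Within libraries, the CPM ratio of *Zbed3* to *Ooep* was 13.9 and 14.8 with Mdivi-1 and 9.40 and 4.25 in Control.

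After each profile of log2 CPM was centred on its own mean, the members lay at a root mean square distance of 0.30 (*Tle6*) to 0.58 (*Khdc3*) from the median profile of the 7. The genes closest to that median profile were *Dcbld2*, *Fkbp5*, *Zfp616*, *Rpap2* and *Suv39h2*, at distances of 0.07 to 0.08 among 6787 genes with at least 10 CPM, and 395 such genes lay within 0.2. This distance also depends on the size of the differences, and the Pearson correlation with the median profile over the 4 libraries, which include the members' own values, was 0.98 for *Zbed3*, 0.88 for *Nlrp2* and between 0.01 (*Padi6*) and 0.62 (*Tle6*) for the other 5.

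The promoters are given because all members are transcribed in oocytes, where the factor FIGLA acts through E-boxes with the letters CANNTG. In RefSeq, the 7 members have 11 annotated start sites on GRCm38.p6. In the 250 bases upstream, CANNTG, which reads alike on both strands, was present at 10 of these 11 sites and in 6 of the 7 members, beside 66.2% of 32851 promoter windows of the same length. *Nlrp2* was the member without it. In *Ooep*, *Khdc3* and *Padi6* an E-box starts 78 bases upstream of a RefSeq start site, a position noticed after the sequences were searched and shared by 0.484% of all windows. This position holds for the RefSeq starts only, since GENCODE M21 starts *Ooep* and *Khdc3* further upstream and both of their stretches lie inside the GENCODE gene bounds given above. The E-box is in capitals below.

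Ooep (chr9:78378649-78378678, minus strand): acccagcctaccCACTTGcgcggtgcgcgc
Khdc3 (chr9:73102308-73102337, plus strand): tctcccccacccCAGGTGcagccagtgagg
Padi6 (chr4:140742704-140742733, minus strand): ctcctccaggctCACCTGtgaacccttaac

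TAATTG, a site of the oocyte factor NOBOX, was found on either strand upstream of 1 member (*Ooep*), beside 7.17% of windows.

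Among 11 listed genes of the cytoplasmic lattices and other partners of the complex, the log2 fold change was positive in 7 and negative in 4 (median 0.32), and DESeq2 called 2 higher and 0 lower. Over all genes, 51.3% had a positive log2 fold change, and DESeq2 called 3.41% higher and 2.92% lower of those with its adjusted p. *Nlrp4f*, an oocyte NLR gene whose protein joins the complex in mouse, had 404 and 401 CPM in the Mdivi-1 libraries and 115 and 101 CPM in the Control libraries (log2 fold change 1.90 ± 0.29 SE, edgeR adjusted p = 0.136, DESeq2 adjusted p = 5.43e-07). *Ywhaz*, which encodes a 14-3-3 adaptor protein, had 319 and 453 CPM with Mdivi-1 and 177 and 141 CPM in Control (log2 fold change 1.28, edgeR adjusted p = 0.173, DESeq2 adjusted p = 0.00515). Regulators of DNA methylation and ubiquitin among the partners were called by neither test. *Uhrf1*, which guides maintenance DNA methylation, had 66.8 and 89.1 CPM in the Mdivi-1 libraries and 50.9 and 45.9 CPM in the Control libraries (log2 fold change 0.69, edgeR adjusted p = 0.341). *Ube2d3*, a ubiquitin-conjugating enzyme, had 1109 and 1389 CPM with Mdivi-1 and 695 and 863 CPM in Control (log2 fold change 0.68, edgeR adjusted p = 0.355). *Nlrp14*, which acts with UHRF1 in mouse oocytes, had 148 and 197 CPM in the Mdivi-1 libraries and 153 and 123 CPM in the Control libraries, so that its groups overlapped. *Dppa3*, which keeps UHRF1 out of the nucleus, had 13254 and 10865 CPM with Mdivi-1 and 13042 and 21231 CPM in Control. The log2 fold changes of *Dnmt1*, *Prkaca* and *Ywhae* were 0.17, 0.96 and -0.17 with overlapping libraries. Those of *Tubb4b* and *Kpna2* were -0.61 and -0.51 with both treated libraries below both controls, as in 23.9% of all genes tested. Of the 9 partners other than *Nlrp4f* and *Ywhaz*, DESeq2 called 0 and edgeR 0 at an unadjusted p under 0.05. That edgeR threshold gave 8.27% of all genes higher and 7.64% lower.

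Paralogs of the members gave a wider picture of the families. Of 34 listed paralogs, 31 were found and 24 tested, 19 of them with a positive log2 fold change (median 0.58), and some, such as *Nlrp4f*, also stand on another list here. Over all genes, 51.3% had a positive log2 fold change. DESeq2 called 4 paralogs higher and 1 lower, beside 3.41% and 2.92% of the genes with its adjusted p. The paralogs with the smallest p were oocyte NLR genes with close copies in the genome, whose uniquely mapped counts are uncertain. *Nlrp9a* had 192 and 158 CPM in the Mdivi-1 libraries and 44.8 and 46.8 CPM in the Control libraries (log2 fold change 1.93, DESeq2 adjusted p = 1.02e-05). *Nlrp4e* had 117 and 169 CPM with Mdivi-1 and 29.2 and 38.7 CPM in Control (log2 fold change 2.08, DESeq2 adjusted p = 2.44e-05). The called lower gene was *Dppa5a*, a KH domain relative of *Ooep* and *Khdc3*, with 1986 and 1477 CPM in the Mdivi-1 libraries and 3529 and 5586 CPM in the Control libraries (log2 fold change -1.40, edgeR adjusted p = 0.193, DESeq2 adjusted p = 0.00113), and it was named after its value was seen.

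The complex is linked in mouse to actin through cofilin, which severs actin filaments. Of 17 listed genes of cofilin and actin turnover, 16 were tested, with log2 fold changes above 0 in 9 and below 0 in 7 (median 0.05). DESeq2 called 1 of them higher, beside 3.41% of the genes with its adjusted p. This was *Wdr1*, a cofactor of cofilin, at 48.8 and 54.7 CPM in the Mdivi-1 libraries and 22.1 and 15.6 CPM in the Control libraries (log2 fold change 1.45, edgeR adjusted p = 0.173, DESeq2 adjusted p = 0.0305). *Limk2* and *Ssh1*, a kinase and a phosphatase of cofilin, had log2 fold changes of 0.96 and 1.15 with edgeR adjusted p of 0.369 and 0.464. Cofilin itself, *Cfl1*, named after its values were seen, had 147 and 190 CPM with Mdivi-1 and 222 and 126 CPM in Control, with overlapping libraries.

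Of 44 other maternal effect and oocyte genes, 43 were tested, 29 with a positive log2 fold change (median 0.62), and DESeq2 called 11 higher and 0 lower. Over all genes, 51.3% had a positive log2 fold change, and DESeq2 called 3.41% higher and 2.92% lower of those with its adjusted p. Named as genes of this list with the smallest p were *Bmp15*, an oocyte growth factor (log2 fold change 1.84, DESeq2 adjusted p = 2.49e-05), and *Wee2*, an oocyte kinase that inhibits CDK1 (1.64, DESeq2 adjusted p = 0.000153). The log2 fold change of *Zbed3* lay above the list's median of 0.62. The log2 fold change of *Nlrp2* also lay above the median of the list, and those of the other 5 members lay below it. *Dnm1l*, which encodes the drug target DRP1, had 93.7 and 91.3 CPM in the Mdivi-1 libraries and 37.9 and 33.1 CPM in the Control libraries (log2 fold change 1.38, edgeR adjusted p = 0.153, DESeq2 adjusted p = 0.00952). Its adaptor *Mff* on the mitochondrial outer membrane had 230 and 173 CPM with Mdivi-1 and 73.2 and 73.4 CPM in Control (log2 fold change 1.46, DESeq2 adjusted p = 0.00122), and *Mief1*, another adaptor, a log2 fold change of 0.87 (edgeR adjusted p = 0.398). Of the 5 fission genes, 4 had a positive log2 fold change, beside 51.3% of all genes. DESeq2 called 2 of these 5 higher, beside 3.41% of the genes with its adjusted p.

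**Figure D3:**
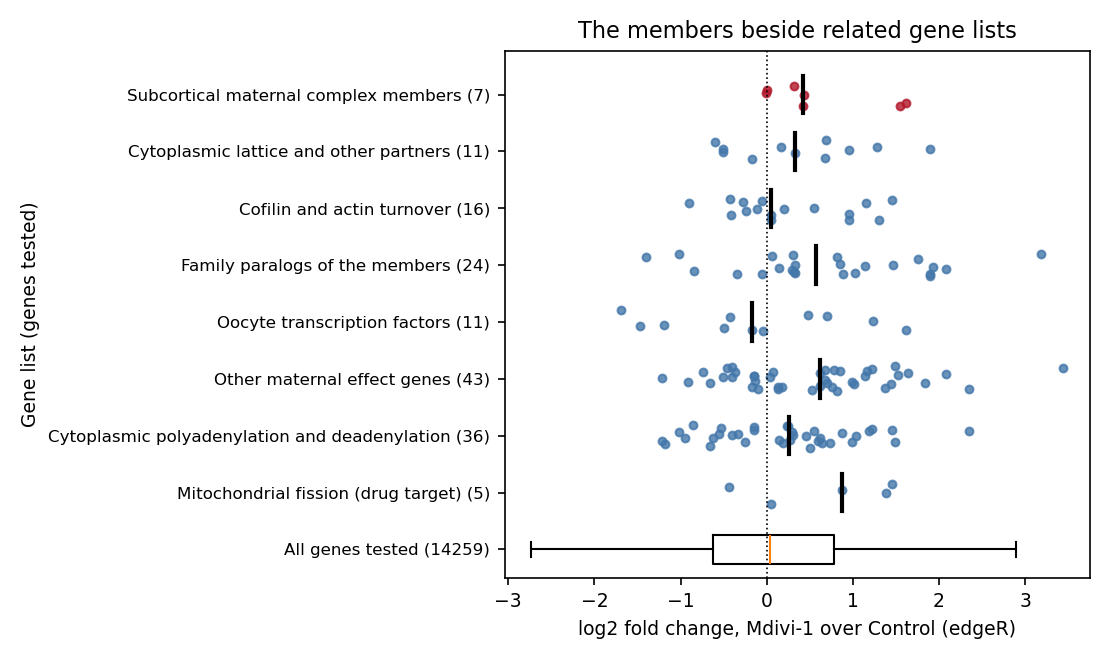
Log2 fold change, Mdivi-1 over Control (x axis), with 1 dot per tested gene in each of 8 lists (y axis, numbers tested in brackets), black bars for medians, and a box of quartiles with whiskers for all 14259 genes. The members are in red with a median of 0.42, and *Zbed3* (1.61) and *Nlrp2* (1.55) lie to the right of the other 5.

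Other settings moved the members to different degrees. The log2 fold changes of *Zbed3*, *Nlrp2* and *Tle6* were positive in each of 17 alternatives, DESeq2 without each library included, whereas those of *Khdc3* and *Padi6*, close to 0, changed sign in 7 and 5 of them, and those of *Nlrp5* and *Ooep* in 2 each.

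**Figure D4:**
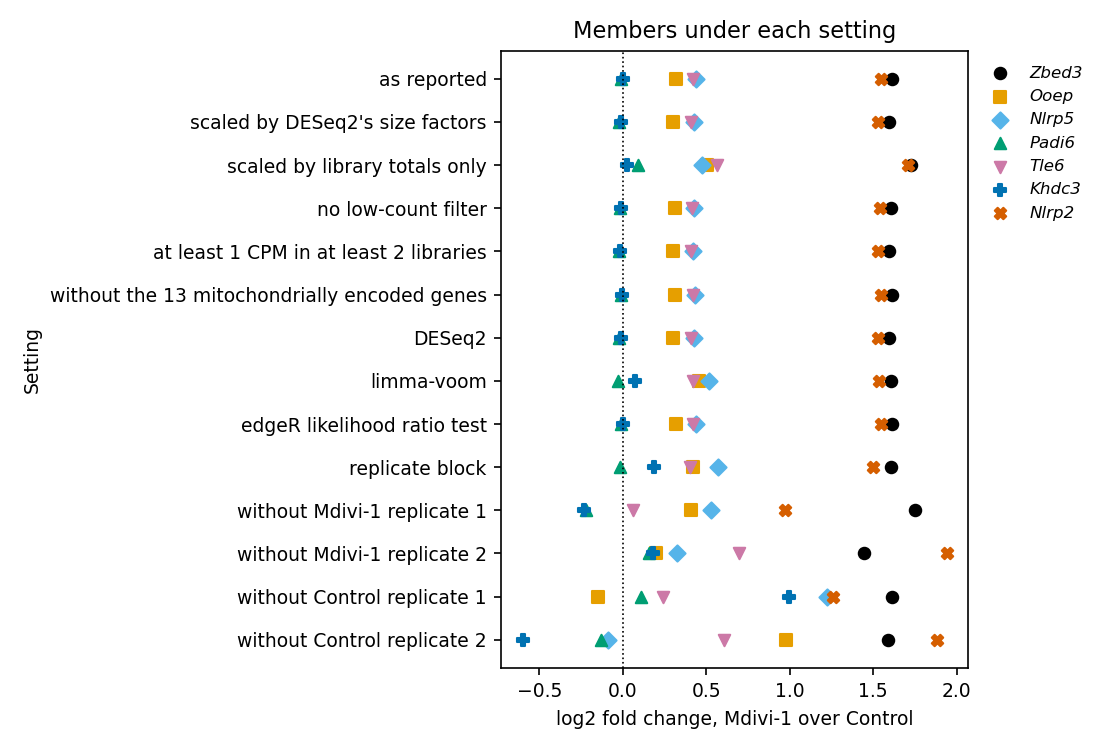
Log2 fold change, Mdivi-1 over Control (x axis), of the 7 members under the reported setting and 13 alternatives (y axis). *Zbed3* stays between 1.44 and 1.75, and *Ooep*, *Nlrp5* and *Khdc3* move most when a Control library is left out.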

How the data were processed

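RNA of late 2C embryos was measured in 4 libraries made by Smart-Seq2, which keeps no strand. The authors trimmed reads with cutadapt 1.16, mapped them with STAR (build mm10 per the submitters' processing notes) and deposited raw counts of uniquely mapped reads in exons. Beside these counts, the authors deposited a scaled signal, each count over its library's size factor, and their own DESeq2 results, namely log2 fold changes, a Wald score and p-values, which were not used here. Genes were filtered with filterByExpr (minimum count 10), scaled by TMM and tested with edgeR 4.0.16 (quasi-likelihood, two-sided, R 4.3.3). DESeq2 1.42.0 and limma-voom (limma 3.58.1) were alternatives, beside other scalings and filters, the likelihood ratio test, the replicate number as a block, and each library left out. DESeq2 without each library was added after seeing the data. Standard errors were worked back from the edgeR test. Log2 CPM for profiles had 0.5 added. Groups and replicates follow the titles of the samples. The script was tested on simulated data. Per degree of freedom, the chi-square between libraries of a group was 55.6 with Mdivi-1 and 122 in Control, so that no library was counted as a copy.

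Positions and exon lengths are from GENCODE M21 on GRCm38. The table's own positions differ for all 7 members and were not used. Promoters are from RefSeq on GRCm38.p6. Counts of uniquely mapped reads are uncertain for genes with near-identical copies or overlapping exons. The members and gene lists were chosen with earlier results of these data known. Named genes are the members, all lattice partners, up to 3 genes of each other list with the smallest p, the 5 closest profiles (mean of at least 10 CPM, no Gm or Rik models) and *Dnm1l*. Outside this rule, *Cfl1*, *Cpeb1*, *Dppa5a*, *Gja1* and *Papola* were named after their values were seen. The lists cover partners, paralogs, actin turnover, oocyte transcription factors, maternal effect genes, polyadenylation, fission and cell type markers.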

Additional observations from a re-analysis of the deposited data

How the results depend on the processing

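The precision is limited by 2 libraries per group. Genes past an adjusted p of 0.05 numbered 0 as reported, 819 with no filter on low counts, 867 by DESeq2, 202 by limma-voom, 870 by the likelihood ratio test, and 0 to 10 with a library left out (10 without Control replicate 2); DESeq2 with a library left out called 90 (without Mdivi-1 replicate 1), 222 (without Mdivi-1 replicate 2), 840 (without Control replicate 2) and 1458 (without Control replicate 1). In these fits the lone library is assumed to vary like the other group. Of the members, 0 passed as reported and 1, *Zbed3*, with no filter on low counts and by DESeq2, limma-voom and the likelihood ratio test, and 1 by DESeq2 whichever library was left out. Both treated libraries lay above both controls in 2 members, beside 26.1% of all genes. The count of members was 4 when scaled by library totals only, and 3 or 4 with a library left out, where fewer libraries must separate. The share of all genes was not worked out for these settings, so the higher counts are not read as a result about the members. The median of the members was 0.32 to 0.997 with a library left out, the highest without Control replicate 1. Scaling by library totals moved the median of all genes to 0.14, and gave *Khdc3* 0.0245 and *Padi6* 0.0948, both below that median. *Khdc3* was 0.0728 by limma-voom. With a library left out, log2 fold changes were -0.60 to 0.997 for *Khdc3*, -0.22 to 0.16 for *Padi6*, -0.0869 to 1.23 for *Nlrp5* and -0.15 to 0.98 for *Ooep*. The signs that turned under DESeq2 with a library left out were those of *Khdc3* (0.96 without Control replicate 1, 0.19 without Mdivi-1 replicate 2), *Padi6* (0.0678 and 0.17 without the same libraries), *Nlrp5* (-0.0886 without Control replicate 2) and *Ooep* (-0.18 without Control replicate 1). The cause was not tested.

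The groups share replicate numbers, but the labels do not say that a number marks a shared collection. Across 14259 genes the difference between replicates 1 and 2 had r = 0.00456 between the groups. With the replicate block 0 genes and 0 members passed, *Zbed3* was 1.605 (adjusted p = 0.142), and *Khdc3* was 0.19. It changed no call.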

Other observations

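Among 11 transcription factors of the oocyte, the log2 fold change was positive in 4 and negative in 7 (median -0.17), and DESeq2 called 0 in either direction, while edgeR gave 0 at an unadjusted p under 0.05. Over all genes, the shares were 3.41% higher and 2.92% lower by DESeq2, and 8.27% higher and 7.64% lower by edgeR. *Taf4b*, a germ cell subunit of TFIID, had 129 and 139 CPM in the Mdivi-1 libraries and 207 and 172 CPM in the Control libraries (edgeR adjusted p = 0.445). *Foxo3*, a guardian of resting oocytes, had 1052 and 1131 CPM with Mdivi-1 and 759 and 807 CPM in Control (edgeR adjusted p = 0.493). *Tbpl2*, an oocyte relative of the TATA-binding protein, had 2.74 and 15.5 CPM with Mdivi-1 and 2.55 and 3.41 CPM in Control.

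Genes that lengthen, shorten or read the poly(A) tail did not move in 1 direction. Of 37 listed, 36 were tested, with log2 fold changes above 0 in 22 and below 0 in 14 (median 0.26), and DESeq2 called 4 higher and 1 lower. Over all genes with its adjusted p, DESeq2 called 3.41% higher and 2.92% lower. *Btg4*, an adaptor that recruits the CCR4-NOT deadenylase to maternal mRNA, had 1650 and 3614 CPM in the Mdivi-1 libraries and 380 and 656 CPM in the Control libraries (log2 fold change 2.35, edgeR adjusted p = 0.150, DESeq2 adjusted p = 3.92e-06). *Cnot6l*, a deadenylase subunit, had a log2 fold change of 1.49 (DESeq2 adjusted p = 0.000395) and *Pan2*, a subunit of another deadenylase, 1.45 (DESeq2 adjusted p = 0.0330). *Papola*, a poly(A) polymerase named after its value was seen, had 189 and 197 CPM with Mdivi-1 and 308 and 441 CPM in Control (DESeq2 adjusted p = 0.0428). *Cpeb1*, also named after its values were seen and whose protein binds the element found in the *Zbed3* transcript, had 353 and 257 raw counts with Mdivi-1 and 558 and 159 in Control, with overlapping libraries. Summed CPM of the 12 markers of 8-cell embryos and morulae were 159 and 164 with Mdivi-1 and 175 and 161 in Control, and those of 8 blood markers 70.8 and 67.3 with Mdivi-1 and 77.6 and 89.3 in Control.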
